A study of Homo sapiens with 12 samples.

Results

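The genes described here are 10 products of the contractile and actin-binding programme that serum response factor (SRF) controls: the calponins CNN1, CNN2 and CNN3, TAGLN, ACTA2, MYL9, the tropomyosins TPM1 and TPM2, VCL and SRF itself. They are 10 of the 22379 genes in the table, and all 10 passed the low-value filter that left 13811 genes to test. The set was chosen by the level of CNN1, which lay lower in untreated NUP93 knockout cells than in controls. The question was whether related genes followed it. The values come from 12 libraries of polyadenylated RNA from U2OS, a human osteosarcoma line, in 6 groups of 2 replicates. A plasmid for Cas9 and 1 guide RNA had been introduced into all cells by transient transfection. The guide was nontargeting (NONT) or aimed at NUP93, a scaffold protein of the nuclear pore (NUP93-KO), or at EXOSC5, a core subunit of the RNA exosome (EXOSC5-KO). Each of the 3 genotypes was kept in DMSO (untreated) or in 1 μM triptolide, which blocks transcription by RNA polymerase II through the XPB subunit of TFIIH, with an 8 h label on both arms. The knockouts were pools of transfected cells and not clones. The study's methods give 2 days of puromycin and 1 day of expansion for both knockouts, and 3 days and 2 days for the other guides of its list, NONT among them. Knockout and time since transfection therefore cannot be told apart in comparisons with NONT.

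SRF is a transcription factor that binds the CArG box, a short A/T-rich element between CC and GG. It works with alternative partners. The myocardin-related factors MRTFA and MRTFB are held in check by monomeric actin and drive actin-binding and contractile genes, whereas the ternary complex factors of the ELK group follow MAP kinase signals and drive immediate early genes. In smooth muscle this programme builds the contractile apparatus. In mesenchymal and osteosarcoma cells its members are parts of stress fibres and focal adhesions.

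The promoters of the members were examined for the element that names the family. RefSeq gave 12 windows for 8 of the 10 members, each running from 250 bases before to 50 bases after an annotated start on GRCh38. TAGLN and MYL9 had no entry. A full CArG box, searched on both strands, occurred in 2 of the 12 windows, 1 of CNN2 and 1 of SRF, and in 1.29% of 35116 windows of the same length. ACTA2 held 2 elements with 1 mismatch, a form found in 18.9% of all windows. The window of CNN1 held neither form, and it is shown up to the base before the first CNN1 exon of GENCODE 44 as the promoter of the gene that led to the set. Capitals mark the CArG box or its 1-mismatch form, and all stretches are written 5′ to 3′ on the strand of the gene.
CNN2, chr19:1026494-1026553, plus strand: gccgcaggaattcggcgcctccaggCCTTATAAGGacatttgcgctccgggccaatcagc
SRF, chr6:43171214-43171268, plus strand: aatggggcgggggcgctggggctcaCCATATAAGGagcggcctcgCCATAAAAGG
ACTA2, chr10:88952860-88952919, minus strand: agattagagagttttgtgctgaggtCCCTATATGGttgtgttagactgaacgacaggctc
ACTA2, chr10:88952810-88952869, minus strand: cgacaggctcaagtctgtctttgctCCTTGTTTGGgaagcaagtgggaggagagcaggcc
CNN1, chr19:11538601-11538766, plus strand: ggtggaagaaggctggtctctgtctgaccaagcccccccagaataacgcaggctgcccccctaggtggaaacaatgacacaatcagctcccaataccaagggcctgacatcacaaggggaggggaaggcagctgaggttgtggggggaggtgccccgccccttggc
The CNN2 and SRF stretches lie upstream of the annotated gene start. The ACTA2 stretches lie upstream of an internal start and within the gene as GENCODE draws it, opposite an intron of STAMBPL1. The motif CATTCC, bound by TEAD factors, was in a window of CNN3, ACTA2 and VCL and in 14% of all windows. TATAAA was in a window of SRF, where it overlapped a CArG box with 1 mismatch, and in 11.5% of all windows. These matches describe letters in these windows and say nothing of binding in U2OS cells.

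Library facts that touch the members were as follows. Approximate depth was 8.60 to 11.96 M reads per library, where M is a 1 with 6 zeros, and the thinnest value of any member, ACTA2 in NONT with triptolide, rested on about 99.7 reads. The 2 untreated NONT libraries stood apart in scale: the median gene was 0.51 lower on the log2 scale in replicate 1 than in replicate 2, against 0.25 between the NONT triptolide replicates and at most 0.14 within the knockout groups. Because values are scaled by spike-in per counted cell, such a shift moves all genes of a library together. In untreated cells NUP93 was 1753 and 2489 with the nontargeting guide and 1395 and 1432 with its own guide. EXOSC5 was 299.4 and 481.3 with the nontargeting guide and 215.9 and 147.7 with its own. Both targeted genes lay below NONT in both replicates, though much of each transcript remained. Of 8 markers of an osteosarcoma line, 7 had an untreated mean of at least 10. VIM, COL1A1 and SPARC were high in every library, at 7368 or more, COL1A2 lay between 4.05 and 42.0, RUNX2 between 9.56 and 403.5, and TWIST1 was listed at 0. COL1A1 was 23577 and 28122 in untreated NUP93-KO and 39198 and 57588 in NONT. CDH2 was 1181 and 1322 in untreated NUP93-KO and 1348 and 2131 in NONT. VIM, COL1A2, SPARC, RUNX2 and ALPL overlapped between these 2 groups. The part of these markers in the results below was not tested. Of the 6 markers of differentiated smooth muscle only ACTG2 had an untreated mean of at least 10. MYH11 lay between 0 and 17.2 and MYOCD between 0 and 14.7, so the contractile genes below were expressed in cells near 0 for the defining smooth muscle genes. The summed level of the 6 markers was 28.4 and 65.1 in untreated NONT, 14.8 and 16.2 in NUP93-KO and 28.1 to 51.1 in EXOSC5-KO. Its part in the results below was not tested.

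Levels of the members differed widely. Per kilobase of the canonical transcript, over the 6 untreated libraries, TPM2 was highest with a median of 9814 spike-in-normalised units per kb, followed by TPM1 with 4535, CNN3 with 3651, MYL9 with 1647, TAGLN with 1343 and CNN2 with 1328. Vinculin (VCL, which links actin to focal adhesions) had 807.5 units per kb, CNN1 560.3, SRF 321.9 and ACTA2 159.7. The ranges over libraries of neighbours in this order overlapped except between CNN3 and MYL9, between CNN2 and VCL and between SRF and ACTA2. CNN1, a calponin typical of smooth muscle that binds actin and slows myosin, was thus among the lower members, whereas CNN2 and CNN3, its more widely expressed relatives, were higher. ACTA2 shares long stretches of sequence with the other actins, and its values are uncertain to that degree.

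**Figure D1:**
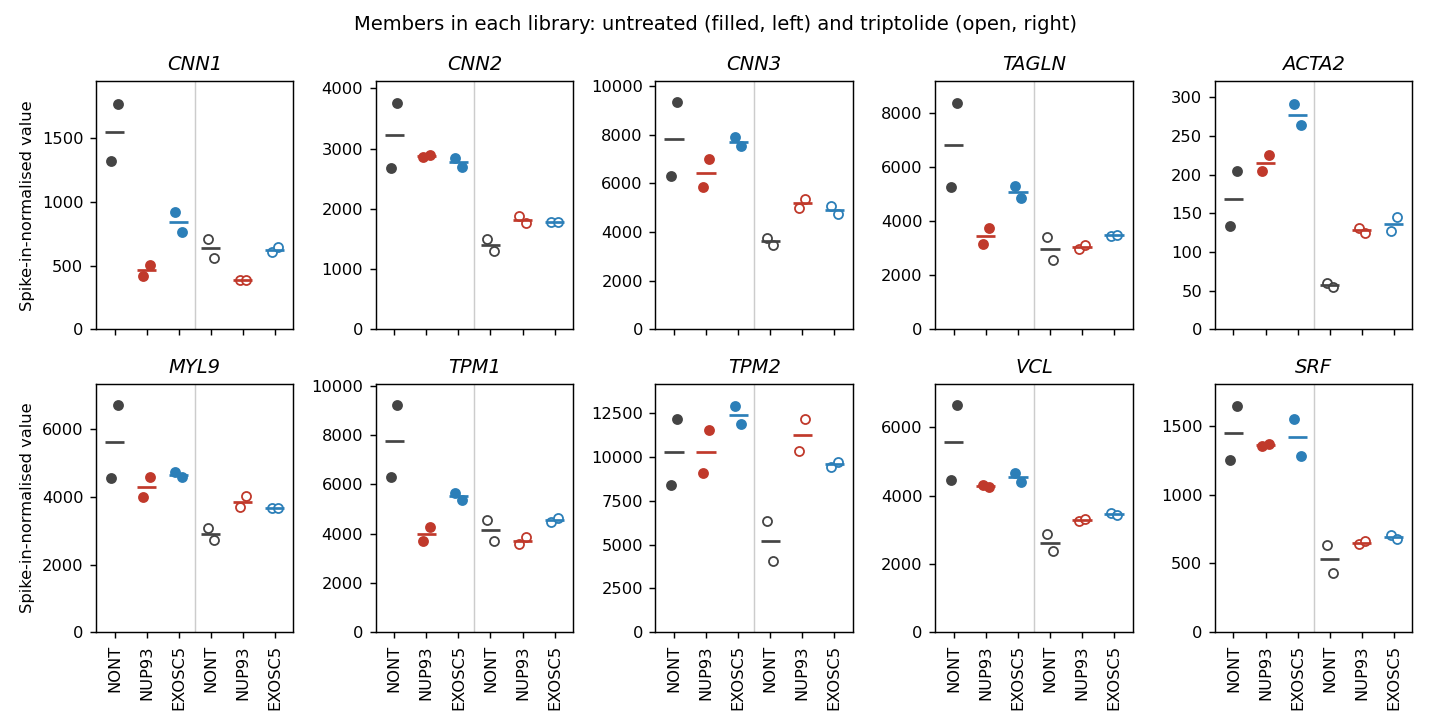
Spike-in-normalised value (linear axis from 0) of each member in each library, untreated on the left of the grey line (filled points) and with triptolide on the right (open points). Each point is 1 library and the short line is the mean of 2. CNN1, TAGLN and TPM1 have both untreated NUP93-KO points below both untreated NONT points by a clear gap, while TPM2 and SRF overlap.

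CNN1 (ENSG00000130176) lies on the plus strand of chromosome 19 in GRCh38, between 11538767 and 11550323, and its canonical transcript has 7 exons. Its spike-in-normalised value in untreated NONT was 1317 and 1764. NUP93-KO cells had 422.1 and 506.0, and EXOSC5-KO cells 921.1 and 758.7. After triptolide NONT had 709.2 and 562.0, NUP93-KO 387.3 and 389.2, and EXOSC5-KO 602.2 and 642.3. The lowest values were those of NUP93-KO under both conditions, and the groups of NUP93-KO and NONT did not overlap in either. Untreated, NUP93-KO averaged 464.0 ± 59.4 (SD, n = 2) against 1541 ± 316 (SD, n = 2) in NONT, or 30.1% of the NONT mean and a log2 difference of −1.72. This difference selected the gene, so it is given without a test. In bulk RNA, fewer cells that express CNN1 and less CNN1 mRNA in each cell cannot be told apart.

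Of the other members, TAGLN and TPM1 had the largest drops in untreated NUP93-KO. TAGLN encodes transgelin, an actin-binding protein of the calponin family. Its untreated values were 5289 and 8390 for NONT, 3167 and 3743 for NUP93-KO, then 5325 and 4876 for EXOSC5-KO. TPM1, a tropomyosin that lies along the actin filament, had 6318 and 9228 for NONT, 3705 and 4287 for NUP93-KO, then 5653 and 5384 for EXOSC5-KO. In both genes all NUP93-KO values were below all values of NONT and of EXOSC5-KO. The same held for VCL, with smaller gaps, and the share of all genes for which it held was not counted. The log2 difference of NUP93-KO from NONT was −0.95 ± 0.22 (SE) for TAGLN and −0.94 ± 0.20 (SE) for TPM1, with limma adjusted p-values of 0.204 and 0.167, so neither passed the threshold on the spike-in scale. The means were 50.5% and 51.4% of NONT.

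The remaining 7 members did not show a drop of that size. CNN2 had 2858 and 2901 in untreated NUP93-KO and 2678 and 3767 with the nontargeting guide, and CNN3 was 5840 and 7022 against 6315 and 9335, so both calponins overlapped between the genotypes. MYL9, the regulatory light chain of nonmuscle and smooth muscle myosin, was 3994 and 4579 against 4540 and 6716. VCL was 4300 and 4262 against 4470 and 6644. The NUP93-KO values of VCL were below both NONT values, but the gap to the lower one was small. SRF itself was 1354 and 1370 against 1250 and 1641. TPM2 was 9074 and 11506 against 8387 and 12173, which places its log2 difference at 0.02 ± 0.23 (SE). ACTA2, the alpha actin of smooth muscle, was 204.4 and 226.1 against 133.5 and 204.7, a log2 difference of 0.38 ± 0.28 (SE). The 7 log2 differences ran from −0.37 to 0.38, and every limma adjusted p-value was 1.

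Over all genes the same comparison called 3 of 13811 genes, or 0.0217%, 1 lower and 2 higher. Among the members 1 was called, CNN1, whose choice rested on this contrast. Of the other 9 members, 2 passed at an unadjusted p under 0.05 (TAGLN and TPM1), as did 4.2% of all genes. Both NUP93-KO replicates lay below both NONT replicates in 3 of these 9 members, TAGLN, TPM1 and VCL, and in 12.8% of all genes tested. The median of the 9 log2 differences was −0.26 against −0.09 over all genes. Leaving out NONT replicate 1, so that the higher NONT library stood alone, brought TAGLN to −1.28 with an adjusted p of 0.0377 and TPM1 to −1.21 with 0.0348. Leaving out NONT replicate 2 gave −0.62 with 0.389 and −0.66 with 0.268.

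**Figure D2:**
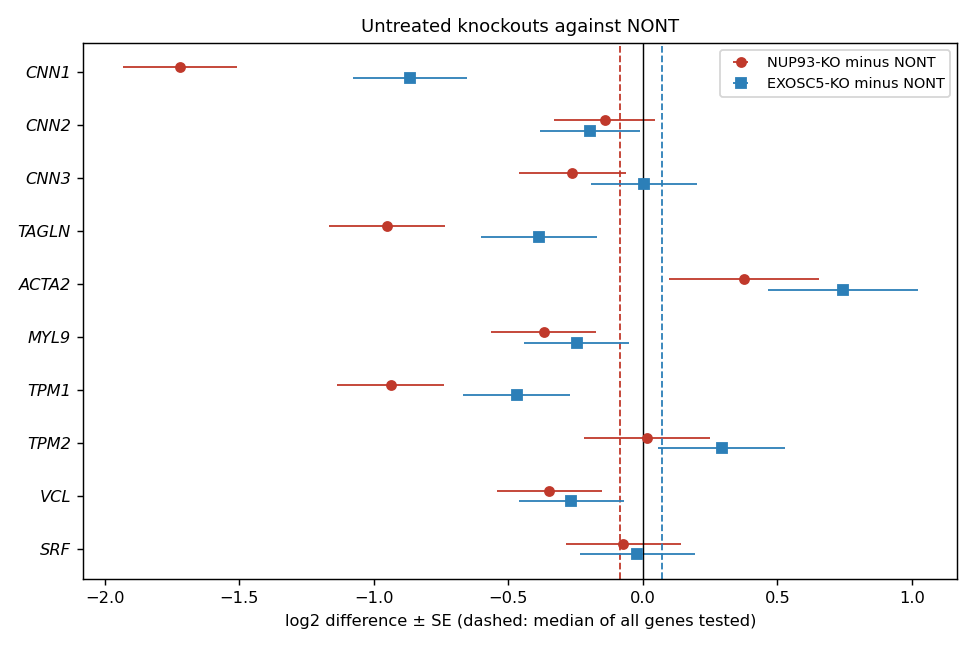
Log2 difference of untreated NUP93-KO (red circles) and EXOSC5-KO (blue squares) from untreated NONT for each member, with the standard error of the fit as bars. Dashed lines mark the median of all genes tested, −0.09 and 0.07. CNN1, TAGLN and TPM1 are farthest to the left in NUP93-KO, and ACTA2 lies to the right in both knockouts.

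In EXOSC5-KO cells the same 3 genes had smaller negative log2 differences, and TAGLN overlapped between the genotypes. This comparison uses the same NONT libraries as the one above, so the values stand side by side and are not independent. CNN1 in EXOSC5-KO was 54.5% of NONT, which is −0.87 ± 0.21 (SE) in log2 units (limma, adjusted p = 0.108). Without untreated NONT replicate 1 it was −1.08 with an adjusted p of 0.0443. TPM1 differed by −0.47 ± 0.20 and TAGLN by −0.39 ± 0.22, with adjusted p-values of 0.511 and 0.713. ACTA2 was 291.2 and 264.5 in EXOSC5-KO and 133.5 and 204.7 in NONT. Its EXOSC5-KO values were the highest of the untreated libraries, and the log2 difference was 0.74 ± 0.28 (SE) with an adjusted p of 0.426. The other 6 members lay between −0.27 and 0.29. No member was called by limma, against 0.521% of all genes. At an unadjusted p under 0.05, 3 members and 8.49% of all genes passed. The 3 were CNN1 and TPM1, both lower, and ACTA2, which was higher. Both EXOSC5-KO values were below both NONT values for CNN1 and TPM1, and for 9.2% of all genes.

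The knockouts were also compared with each other, which leaves out the uneven NONT libraries and the difference in puromycin selection. CNN1 in NUP93-KO was 55.3% of its level in EXOSC5-KO, which is −0.85 ± 0.21 (SE) in log2 units (limma, adjusted p = 0.150). The untreated NUP93-KO libraries of this contrast also led to the choice of CNN1, which favours a negative difference. Its p-values here are therefore not those of an independent test. The adjusted p was 0.0482 and 0.0480 when untreated NONT replicate 1 or 2, which only add to the estimate of spread, was left out. TAGLN differed by −0.57 ± 0.22 (adjusted p = 0.457) and TPM1 by −0.47 ± 0.20 (adjusted p = 0.538). The other members ranged from −0.37 to 0.05. No member was called, against 0.29% of all genes. At an unadjusted p under 0.05, 3 members and 7.92% of all genes passed. NUP93-KO lay below EXOSC5-KO in both replicates for 8 of the 10 members, all but CNN2 and SRF, and for 39.0% of all genes.

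Levels taken relative to the median gene of each library remove the shift between replicates. On this scale CNN1 was 2.20 and 2.12 log2 units above the median gene in untreated NONT, 1.29 and 1.12 in EXOSC5-KO and 0.46 and 0.58 in NUP93-KO. With triptolide the values were 3.09 and 3.03 in NONT, 2.27 and 2.38 in EXOSC5-KO and 1.68 and 1.63 in NUP93-KO. CNN1 therefore fell in the order NONT, EXOSC5-KO, NUP93-KO with no overlap, both without and with drug. Its untreated NUP93-KO and NONT values led to its choice. The share of all genes in this order was not counted, so how unusual the order is cannot be read from these values. TAGLN took the same order, with untreated values of 4.21 and 4.37, then 3.82 and 3.81, then 3.37 and 3.47. TPM1 did so as well, with 4.46 and 4.51, then 3.91 and 3.95, then 3.59 and 3.66. With triptolide TAGLN was 5.35 and 5.23 in NONT, 4.80 and 4.82 in EXOSC5-KO and 4.63 and 4.63 in NUP93-KO. The corresponding values of TPM1 were 5.77 and 5.75, then 5.17 and 5.23, then 4.89 and 4.93. ACTA2 went the other way in untreated cells, from −1.09 and −0.98 in NONT through −0.58 and −0.58 for NUP93-KO to −0.37 and −0.39 for EXOSC5-KO. SRF differed little without drug, from 1.88 to 2.14 in all 6 untreated libraries.

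Tests on scales that remove library shifts called these genes. With every library set to the same total, TAGLN was −0.84 ± 0.06 (SE) in untreated NUP93-KO against NONT with a limma adjusted p of 0.000186, TPM1 was −0.82 ± 0.04 with 3.71e-05, and MYL9 was −0.25 ± 0.05 with 0.0485. With median-of-ratios factors over genes the same 3 passed, at −0.88, −0.87 and −0.30. With the sum of the mitochondrially encoded mRNAs held equal, TAGLN (−0.88, adjusted p = 0.0437) and TPM1 (−0.87, adjusted p = 0.0421) passed and MYL9 did not. CNN1 was called on all 3 scales, again in the contrast that chose it. The calls over all genes rose to 0.97%, 0.941% and 0.116% on the 3 scales. For EXOSC5-KO against NONT the same scales called 6, 7 and 6 members, among them CNN1, TAGLN, TPM1, MYL9 and VCL as lower on every one of them, against 4.88%, 5.81% and 5.76% of all genes. The direction of those calls over all genes moved with the scale, from 5 lower and 67 higher on the spike-in scale to 289 and 385, 517 and 285, and 719 and 76. ACTA2 was called higher on the first and second of these, at 0.72 (adjusted p = 0.0317) and 0.64 (adjusted p = 0.0453). For NUP93-KO against EXOSC5-KO, CNN1, TAGLN and TPM1 were called lower on the first and second scales, where 3.06% and 3.43% of genes were called. The NUP93-KO libraries that led to the choice of CNN1 enter this contrast too. With the mitochondrial sum no member was called and 1.71% of genes were. The calls over all genes were 37 lower and 3 higher on the spike-in scale and 210 and 213, 186 and 288, and 32 and 204 on the others.

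**Figure D3:**
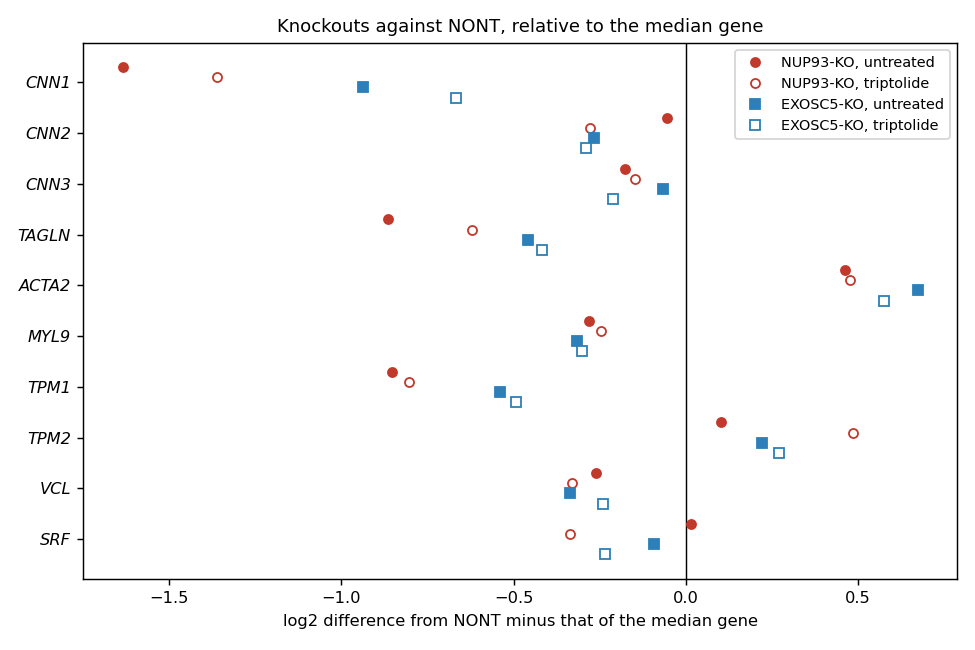
Log2 difference of each knockout from NONT minus that of the median gene, for each member, untreated (filled) and with triptolide (open). NUP93-KO is in red circles and EXOSC5-KO in blue squares. CNN1, CNN2, CNN3, TAGLN, MYL9, TPM1 and VCL lie left of 0 in all 4 comparisons, and ACTA2 and TPM2 lie right of 0 in all 4. CNN1, TAGLN and TPM1 lie farthest left in each, with NUP93-KO farther left than EXOSC5-KO.

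Triptolide lowered the members less than the median gene in NONT cells on the spike-in scale. All 10 were called lower, against 90.0% of all genes tested. The log2 response ran from −0.89 ± 0.20 (SE) for TPM1 to −1.50 ± 0.28 (SE) for ACTA2, with limma adjusted p-values from 9.98e-06 to 0.000878, while the median gene fell by 1.62 on the log2 scale. CNN1 retained 41.3% of its untreated mean, SRF 36.7% and TPM1 53.2%, with a range over pairs of libraries of 31.9% to 53.8% for CNN1. The direction of this response belongs to the scale: with the same total per library 8 of the 10 members had a positive difference, and with median-of-ratios factors all 10 did. With the mitochondrial sum held equal all 10 remained negative. Over all genes the calls were 12427 lower and 7 higher on the spike-in scale, 5270 lower and 2105 higher with the same total, and 4213 lower and 3704 higher with median of ratios.

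In NUP93-KO the response to triptolide was uneven among the members. SRF was at 47.8% of its untreated mean, ACTA2 at 59.5% and CNN2 at 63.3%, VCL at 76.9%, CNN3 at 80.6% and MYL9 at 89.9%. CNN1 was at 83.7% of its untreated mean, TAGLN at 88.4%, TPM1 at 93.2% and TPM2 at 109.2%. Only CNN2 (−0.66 ± 0.19), ACTA2 (−0.74 ± 0.28) and SRF (−1.06 ± 0.21, SE) were called lower by limma, with adjusted p-values of 0.00638, 0.0319 and 0.000441, against 55.1% of all genes and a median gene that fell by 0.92. The call of ACTA2 was lost without any single library of NUP93-KO, where its log2 difference ran from −0.81 to −0.67. CNN2 lost its call without NUP93-KO triptolide replicate 2, where its log2 difference was −0.61. Without either untreated NONT library CNN3 and VCL passed as well, and 60.5% of all genes were called. In EXOSC5-KO the members called lower were CNN2 (−0.63), CNN3 (−0.65), TAGLN (−0.55), ACTA2 (−1.02) and SRF (−1.03), 5 of 10 against 64.3% of all genes, with a median gene at −1.08. Their adjusted p-values ran from 0.000520 for SRF to 0.0345 for TAGLN. TAGLN lost its call without any 1 of the 4 EXOSC5-KO libraries (0.0732 to 0.161), CNN3 without untreated replicate 1 (0.0672) or triptolide replicate 2 (0.0723), and CNN2 without untreated replicate 1 (0.0605). Without either untreated NONT library CNN1, MYL9 and VCL passed as well, and 71.3% of all genes were called. SRF, the regulator of the set, was among the called genes in every genotype, and its log2 response was within 0.16 of the median gene in each. The positive direction again appeared on the scales of equal totals and median of ratios, where CNN1, TAGLN and TPM1 were higher after triptolide in both knockouts. Over all genes the calls in NUP93-KO were 7603 lower and 19 higher on the spike-in scale, 5430 and 1922 with the same total and 4149 and 3618 with median of ratios, and in EXOSC5-KO 8884 and 11, 5078 and 2027, and 3992 and 3562.

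**Figure D4:**
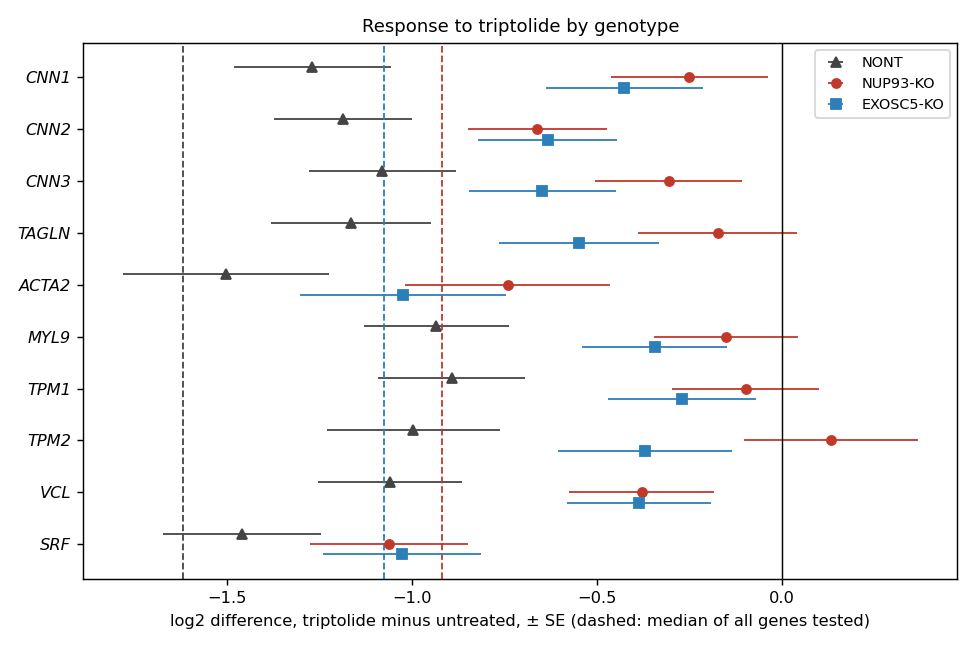
Log2 difference between triptolide and untreated cells for each member in NONT (black triangles), NUP93-KO (red circles) and EXOSC5-KO (blue squares), with standard errors as bars and the median of all genes in each genotype as a dashed line (−1.62, −0.92 and −1.08). Except for SRF in NUP93-KO, every point lies to the right of the dashed line of its genotype.

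The comparison of genotypes under triptolide used libraries other than the untreated ones on which CNN1 was chosen. The members were chosen with earlier results of these data known, so the p-values here are not those of an independent test. Both NUP93-KO values of CNN1, given above, were lower than both NONT values. The mean was 61.1% of NONT, with a log2 difference of −0.70 ± 0.21 (SE) and a limma adjusted p of 0.0195. CNN1 was the 1 member called lower, in a contrast in which 0.188% of all genes were called lower and 41.9% higher. Both NUP93-KO values lay below both NONT values in 1.59% of all genes. The adjusted p of CNN1 rose to between 0.0580 and 0.10 when either NONT or either NUP93-KO triptolide library was left out, each of which leaves 1 library in that arm. Since the median gene was 0.66 higher in NUP93-KO, CNN1 lay 1.36 below it, and 1.79% of genes tested had a lower value. Over all alternatives its adjusted p ranged from 5.52e-05 to 0.10. The excess of genes called higher belonged to the spike-in scale, with 26 lower and 5788 higher, against 331 and 517 with the same total, 383 and 479 with median of ratios and 22 and 127 with the mitochondrial sum.

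TAGLN and TPM1 were not lower on the spike-in scale under triptolide. For TAGLN, NUP93-KO had 2988 and 3118 and NONT 3409 and 2588, a difference of 0.04 ± 0.22 (SE, adjusted p = 0.886 by limma). TPM1 was 3599 and 3851 against 4558 and 3706, a difference of −0.14 ± 0.20 (SE, adjusted p = 0.555 by limma). Relative to the median gene these genes stood at −0.62 and −0.80. With the same total per library both were called lower, at −0.62 (adjusted p = 0.000635) and −0.80 (adjusted p = 4.47e-05), with CNN1, MYL9 and VCL, and 2.4% of all genes were called lower. Median-of-ratios factors called those 5 and CNN2, against 2.77%. The mitochondrial sum called CNN1 and TPM1 lower, against 0.159%, and left TAGLN at −0.56 with an adjusted p of 0.0954.

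Other members were higher in NUP93-KO under triptolide. CNN3 had 4993 and 5369, where NONT had 3776 and 3489, a log2 difference of 0.51 ± 0.20 (SE, adjusted p = 0.0479 by limma). ACTA2 was 131.1 and 125.3 against 60.1 and 55.4 (1.14 ± 0.28, adjusted p = 0.00894). TPM2 was 10328 and 12146 against 6318 and 4060 (1.14 ± 0.23, adjusted p = 0.00442). ACTA2 and TPM2 stood above the median gene, by 0.48 in both, whereas CNN3 lay 0.15 below it and turned negative on the 3 other scales. Without NONT triptolide replicate 2 no member was called, against 5.39% of all genes, and ACTA2 and TPM2 had adjusted p-values of 0.0703 and 0.0674. ACTA2 also missed the threshold without NUP93-KO triptolide replicate 2 (adjusted p = 0.0532), and CNN3 did so without any 1 of 10 libraries (adjusted p from 0.0644 to 0.212). Without either untreated NONT library 7 members were called, CNN2, MYL9 and VCL being added as higher, and 53.3% of all genes.

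In EXOSC5-KO under triptolide, ACTA2 was 127.1 and 145.4 and TPM2 was 9425 and 9718, all above the NONT values given above. The log2 differences were 1.22 ± 0.28 and 0.92 ± 0.23 (SE), with limma adjusted p-values of 0.00541 and 0.00928. TPM2 lost its call without NONT triptolide replicate 2, with 0.60 and an adjusted p of 0.139, and without EXOSC5-KO triptolide replicate 2, with 0.90 and 0.0564. Without either untreated NONT library 6 members were called higher, and 51.8% of all genes were called. With all libraries 2 of 10 members were called higher, against 39.2% of all genes. No member was called lower, against 0.195% of all genes. CNN1 differed by −0.02 ± 0.21, with overlapping replicates. On the 3 other scales CNN1, TAGLN and TPM1 were called lower, at −0.59, −0.34 and −0.42 with the same total, where 4.24% of genes were called lower. The shares were 7.88% with median of ratios and 3.88% with the mitochondrial sum. All calls in this comparison were 27 lower and 5417 higher on the spike-in scale, 585 and 1231 with the same total, 1088 and 919 with median of ratios and 536 and 227 with the mitochondrial sum.

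The difference in response between a knockout and NONT was positive for all 10 members in both knockouts, as it was for the median gene, at 0.74 in NUP93-KO and 0.57 in EXOSC5-KO. For CNN1 it was 1.02 ± 0.30 (SE) in NUP93-KO with a limma adjusted p of 0.0616, and 0.84 ± 0.30 (SE) in EXOSC5-KO with 0.176. The untreated libraries on which CNN1 was chosen enter these differences. A gene chosen for a low untreated NUP93-KO value is pushed towards a positive difference in NUP93-KO, so its p-value is not that of an independent test. In NUP93-KO the members spanned 0.40 for SRF to 1.13 for TPM2. None was called in either knockout, against 0.775% and 0.333% of all genes. At an unadjusted p under 0.05 the counts were 7 and 4 members, against 41.6% and 23.5% of all genes. These counts rest on the NONT libraries. Without untreated NONT replicate 1, 9 and 8 members were called, and 51.2% and 38.5% of all genes. Relative to the median gene the difference for CNN1 was 0.28 and 0.27, and on the scales of equal totals or median of ratios no member was called.

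Other genes of the pathway were read from 2 lists, and the partners of SRF are given by name. Of 40 further actin, myosin and cytoskeletal targets of SRF with MRTF, 36 were tested. In untreated NUP93-KO and EXOSC5-KO against NONT none of them was called by limma, and the median log2 difference was −0.31 and −0.02 against −0.09 and 0.07 over all genes. The count below the median gene was 29 of 36 in NUP93-KO and 24 of 36 in EXOSC5-KO. PALLD, which encodes the actin-crosslinking protein palladin and was chosen here after its values were seen, had 2353 and 2338 in untreated NUP93-KO and 3211 and 4585 with the nontargeting guide (−0.71, adjusted p = 0.601). Of 7 tested immediate early targets of SRF with the ternary complex factors, none was called in either comparison, with a median of 0.23 in NUP93-KO. Between the knockouts no gene of these lists was called either.

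After triptolide in NONT, 34 of the 36 actin-cytoskeletal targets were called lower on the spike-in scale, close to the 90.0% of all genes, with a median of −1.11 beside −1.62 for all genes. The largest falls were in CCN1 (−7.63) and CCN2 (−5.40), which encode matricellular proteins, in the LIM-domain coactivator FHL2 (−2.78) and in TGFB1I1 (−2.12). MYLK was the 1 gene called higher, at 3.72, but its NONT values were 17.6 and 0 untreated and 89.5 and 34.7 with triptolide. Of the partners of SRF, MRTFA fell by 4.44 on the log2 scale, ELK4 fell by 3.09 and MRTFB fell by 2.65, whereas ELK1 (−1.06, named after its values were seen) and ELK3 (−0.97) fell less than the median gene. The 7 immediate early genes fell as well, with a median of −5.84 and EGR1 and IER2 both at −7.43. The value of MRTFA was 1093 and 1822 in untreated NONT and 50.2 and 81.2 with triptolide. In NUP93-KO the called counts of the lists were 12 of 36 and 6 of 7, all lower, against 55.1% of all genes. In EXOSC5-KO they were 19 and 7, against 64.3%.

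Under triptolide 15 of the 36 actin-cytoskeletal targets and 3 of the 7 immediate early genes were higher in NUP93-KO than in NONT by the limma threshold on the spike-in scale, against 41.9% of all genes. In EXOSC5-KO the counts were 18 and 4, against 39.2%, and no gene of these lists was lower in either. CCN1 had 130.3 and 178.0 in NUP93-KO and 22.0 and 28.4 with the nontargeting guide, a log2 difference of 2.56 ± 0.25 (SE, adjusted p = 4.03e-05). SMTN, the cytoskeletal protein smoothelin, was 1644 and 1652 against 927.9 and 582.9 (1.16 ± 0.23, adjusted p = 0.00378). MRTFA was 0.96 and 1.25 higher in the 2 knockouts and ELK3 1.04 and 0.92 higher. The medians of the 2 lists in NUP93-KO were 0.55 and 1.30, beside 0.66 for all genes. On this scale CNN1 was lower in NUP93-KO, whereas every called gene of the 2 lists was higher. Few genes of any kind were called lower there, at 0.188% of all genes. Relative to the median gene, 26 of the 36 actin-cytoskeletal targets lay below it in NUP93-KO, as CNN1 did, and 1 of the 7 immediate early genes. In EXOSC5-KO under triptolide CNN1 differed from NONT by −0.02.

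The genes whose pattern was most like that of CNN1 were found by Pearson correlation over the 12 libraries of the log2 value minus the library median, among 10380 genes with an untreated mean of at least 100. They were PDLIM1 (r = 0.984), TRIM58 (0.976), CRMP1 (0.968), TNNC1 (0.961) and NLN (0.959). The 12 libraries fall into 6 groups, and CNN1 itself was chosen for its pattern, so r describes the likeness and carries no test. TAGLN ranked 11th with 0.937 and TPM1 13th with 0.927, whereas VCL had 0.793, MYL9 0.769, SRF 0.755, CNN2 0.739, CNN3 0.737, TPM2 0.50 and ACTA2 0.119. Among the 10380 genes VCL ranked 290, MYL9 428, SRF 534, CNN2 673, CNN3 699, TPM2 4821 and ACTA2 6621. Many genes thus reached an r of 0.50. PDLIM1, a PDZ and LIM protein of actin stress fibres, had untreated values of 196.2 and 179.6 for NUP93-KO, 308.1 and 295.6 for EXOSC5-KO, then 422.5 and 564.5 for NONT. TNNC1, the calcium-binding troponin C of slow and cardiac muscle, had 129.6 and 175.4 for NUP93-KO, 210.1 and 186.7 for EXOSC5-KO, then 372.6 and 588.5 for NONT. Both stood in the same order of genotypes as CNN1 without overlap, an order that their choice by likeness to CNN1 favours. Untreated NUP93-KO differed from NONT by −0.70 for TRIM58, −0.65 for CRMP1 and −0.60 for NLN in log2 units. TRIM58 and NLN overlapped between untreated EXOSC5-KO and NONT. With triptolide the log2 difference of NUP93-KO from NONT on the spike-in scale was −0.72 for TNNC1 and −0.55 for PDLIM1. It was −0.10 for TRIM58, 0.05 for NLN and 0.37 for CRMP1. Relative to the median gene these differences ran from −1.38 for TNNC1 to −0.29 for CRMP1. They are given without a test because the genes were chosen for their likeness to CNN1 over these libraries.

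**Figure D5:**
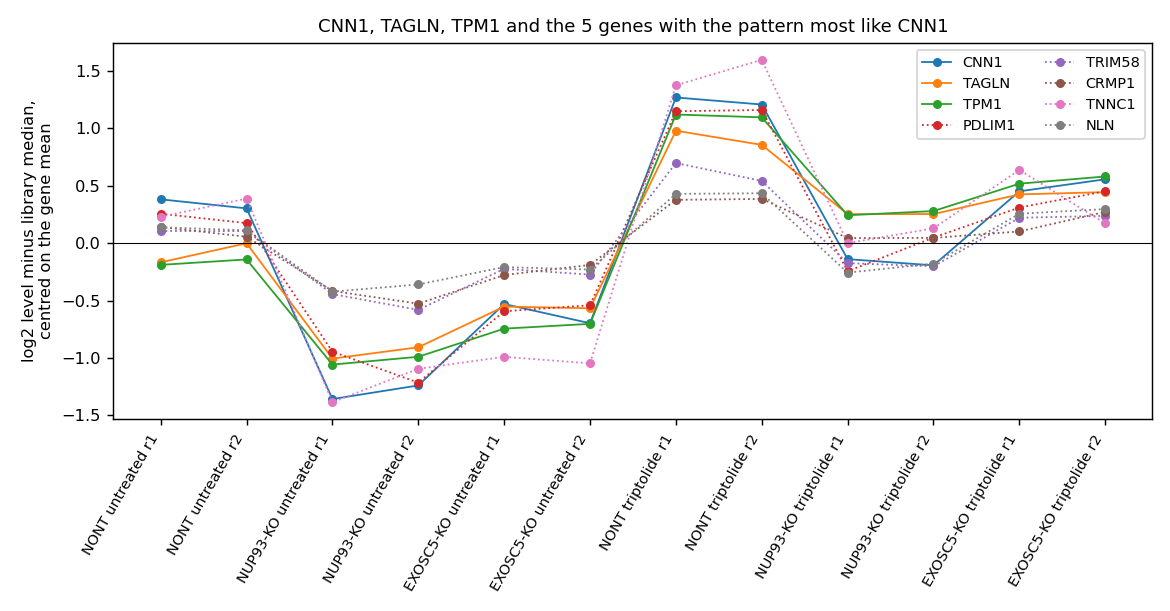
Log2 level minus the library median, centred on each gene's mean over the 12 libraries (r1 and r2 are the replicates), for CNN1, TAGLN and TPM1 (solid) and the 5 genes with the highest correlation to CNN1 (dotted). Lines join points only to guide the eye. All 8 genes lie lower in NUP93-KO than in NONT both without and with triptolide, which the choice of the 5 by likeness to CNN1 favours.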

How the data were processed

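Polyadenylated RNA of 12 U2OS libraries was sequenced, with ERCC spike-ins added in proportion to counted cells. The authors pseudoaligned the reads with kallisto 0.46.1 to GRCh38 transcripts and the ERCC sequences, strand-specifically, summarised them with tximport, retained the protein-coding ones and scaled them by size factors from DESeq2 based on the 92 ERCC transcripts. The deposited values are thus a spike-in-normalised signal per gene and not read counts; errors of cell number or spike-in volume shift whole libraries. Whole reads could not be recovered, so no count model was used, and depth (8.60 to 11.96 M reads per library, M being 1 followed by 6 zeros) was estimated from the spacing of low values. Kallisto divides reads between similar transcripts.

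Gene IDs were matched to GENCODE 44 for symbols and coordinates (19584 of 22379). Genes with an untreated mean of at least 10 (13811) were analysed as log2(value + 1), a scale that understates changes of low genes. All 12 libraries entered 1 limma fit with a mean per group (limma 3.58.1 under R 4.3.3, lmFit and eBayes with trend), with two-sided contrasts, Benjamini-Hochberg adjustment over all genes and a threshold of 0.05, and tested on simulated data. SE is the standard error of the fit. Groups came from the sample labels. Nothing states that replicates are separate cultures, so p-values measure only the spread between these samples. Promoters came from RefSeq (GRCh38).

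The members and gene lists were chosen with earlier results of these data known. A further list and some of its genes are not reported here. Named genes were all members, NUP93 and EXOSC5, up to 4 genes per list, contrast and direction with the largest called change and a group mean of at least 100, and the 5 genes most correlated with CNN1. Alternatives were pseudocounts of 0.5 and 10, a filter at 50 or none, no trend, 3 other scalings (same total, median of ratios, equal sum of the 13 mitochondrial mRNAs), a fit of only the groups compared, a replicate block and leaving out each library. Python 3.11.15, NumPy 2.4.6, pandas 2.3.3 and matplotlib 3.10.9 were used.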

Additional observations from a re-analysis of the deposited data

Results flagged for a closer look

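No member had a difference in response between a knockout and NONT past the threshold. On the wider lists, 2 of 36 tested actin-cytoskeletal targets passed in NUP93-KO and 1 of 7 immediate early genes in EXOSC5-KO. Of all genes, 0.775% and 0.333% passed. The rule names only genes past the threshold, and these 3 are given because the difference itself was tested. CCN1 fell with triptolide by less in NUP93-KO than in NONT, with a difference in response of 2.76 ± 0.35 (SE, limma adjusted p = 0.00685), which ranged from 2.02 to 3.04 over 22 alternatives and missed the threshold in 5 of them. CCN2 did so with 1.38 ± 0.29 (SE, limma adjusted p = 0.0446), with a range of 0.61 to 1.66 and no call in 17 alternatives. IER2, an immediate early gene, fell by less in EXOSC5-KO than in NONT, with 2.60 ± 0.39 (SE, limma adjusted p = 0.00913), a range of 1.65 to 2.89 and no call in 5 alternatives. The median gene had a difference of 0.74 in NUP93-KO and 0.57 in EXOSC5-KO. With triptolide the NONT values of IER2 were 8.11 and 5.07 and those of EXOSC5-KO 55.7 and 64.0.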

How the results depend on the processing

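The other scalings changed most. Under them, most of the directions that turned were triptolide responses and small differences between genotypes, and the scale is set by construction: equal totals and median of ratios remove a loss of mRNA shared by most genes. With the same total per library, the triptolide response in NONT became 0.067 for CNN1, 0.15 for CNN2, 0.26 for CNN3, 0.17 for TAGLN, 0.40 for MYL9, 0.45 for TPM1, 0.34 for TPM2 and 0.28 for VCL. It became 0.32, 0.39 and 0.47 for CNN1, TAGLN and TPM1 in NUP93-KO and 0.37, 0.16, 0.14, 0.24 and 0.52 for CNN1, CNN2, CNN3, TAGLN and TPM1 in EXOSC5-KO. On that scale untreated NUP93-KO against NONT was 0.041 for SRF, EXOSC5-KO against NONT −0.022 for CNN3, and NUP93-KO against EXOSC5-KO 0.017 for MYL9, 0.058 for VCL and 0.088 for SRF. Under triptolide NUP93-KO was −0.14 for CNN3 and −0.62 for TAGLN, and EXOSC5-KO −0.34 for TAGLN and −0.42 for TPM1. The difference in response was −0.37 for SRF in NUP93-KO and −0.11 for CNN3 in EXOSC5-KO.

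With median of ratios, the response in NONT was 0.37 for CNN1, 0.46 for CNN2, 0.56 for CNN3, 0.48 for TAGLN, 0.12 for ACTA2, 0.71 for MYL9, 0.75 for TPM1, 0.65 for TPM2, 0.58 for VCL and 0.18 for SRF. In NUP93-KO it was 0.64 for CNN1, 0.23 for CNN2, 0.72 for TAGLN, 0.15 for ACTA2 and 0.79 for TPM1, and in EXOSC5-KO 0.64, 0.44, 0.42, 0.52, 0.041, 0.80 and 0.043 for CNN1, CNN2, CNN3, TAGLN, ACTA2, TPM1 and SRF. Untreated EXOSC5-KO against NONT was −0.095 for CNN3, and NUP93-KO against EXOSC5-KO was 0.046, 0.087 and 0.12 for MYL9, VCL and SRF. Under triptolide NUP93-KO was −0.17 for CNN3 and −0.64 for TAGLN, and EXOSC5-KO −0.44 for TAGLN and −0.52 for TPM1. The difference in response was −0.35 for SRF in NUP93-KO and −0.14 for CNN3 in EXOSC5-KO. With the same mitochondrial sum, the response of TPM2 in NUP93-KO was −0.17, untreated EXOSC5-KO against NONT was −0.37 for CNN3 and −0.085 for TPM2, and NUP93-KO against EXOSC5-KO was 0.18 for CNN3, 0.075 for ACTA2, 0.32 for MYL9, 0.17 for TPM2, 0.36 for VCL and 0.39 for SRF. Under triptolide NUP93-KO was −0.083 for CNN3 and −0.56 for TAGLN, and EXOSC5-KO −0.60 for TAGLN and −0.68 for TPM1. The difference in response was −0.26 for SRF in NUP93-KO and −0.024 for CNN3 in EXOSC5-KO.

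The number of members called moved with the scale. With the same total it was 6 for triptolide in NONT, 8 for triptolide in NUP93-KO, 4 and 6 for untreated NUP93-KO and EXOSC5-KO against NONT, 3 between the knockouts and 5 for EXOSC5-KO under triptolide. With median of ratios it was 8 for triptolide in each knockout, 4, 7 and 3 for the untreated comparisons, and 7 and 8 under triptolide. With the mitochondrial sum it was 9 and 10 for triptolide in the knockouts, where 10568 and 10378 of 13811 genes were called lower. The number of members was 3 and 6 for the untreated knockouts against NONT and 2 for NUP93-KO under triptolide. Numbers or shares of all genes called in the other comparisons on these scales are given above. A fit of only the groups compared called 10 members for triptolide in EXOSC5-KO and 1 (CNN1) between the knockouts. Without the trend no member was called in untreated NUP93-KO (0) and 2 under triptolide. A filter at 50 called 3 members in the NUP93-KO difference in response. The shares of all genes called with these last settings are not given here, so these counts have no background beside them.

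Leaving out 1 library gave ranges of members called of 1 to 5 for triptolide in NUP93-KO, 2 to 8 in EXOSC5-KO, 1 to 3 and 0 to 1 for untreated NUP93-KO and EXOSC5-KO against NONT, 0 to 1 between the knockouts, 0 to 7 and 1 to 6 for the knockouts under triptolide, and 0 to 9 and 0 to 8 for the differences in response. An arm left with 1 library was assumed to vary like the others. Values that turned under these omissions had ranges of −0.20 to 0.0070 (TPM1) and −0.039 to 0.30 (TPM2) for triptolide in NUP93-KO. For untreated NUP93-KO they were −0.39 to 0.10 (CNN2), −0.54 to 0.020 (CNN3), −0.25 to 0.28 (TPM2) and −0.27 to 0.12 (SRF), and for EXOSC5-KO −0.44 to 0.050 (CNN2), −0.28 to 0.29 (CNN3), −0.53 to 0.036 (MYL9), −0.55 to 0.020 (VCL) and −0.22 to 0.18 (SRF). Between the knockouts SRF ranged from −0.19 to 0.085. Under triptolide the ranges were −0.16 to 0.24 (TAGLN) and −0.29 to 0.0062 (TPM1) in NUP93-KO and −0.19 to 0.15 (CNN1) in EXOSC5-KO. Of all genes tested, the number called ranged over the alternatives from 1 to 134 (reported 3) in untreated NUP93-KO against NONT, 20 to 802 (72) in EXOSC5-KO, 12 to 474 (40) between the knockouts, 149 to 7363 (5814) and 763 to 7153 (5444) for the knockouts under triptolide, 0 to 7072 (107) and 0 to 5313 (46) for the differences in response, and 7375 to 12614 (12434) for triptolide in NONT. Correlations of replicate differences between groups lay between −0.05 and 0.04, so the replicate numbers do not pair the libraries. With the replicate number as a block the members called were 3 rather than 4 for NUP93-KO under triptolide, where CNN3 was lost, and the other 9 counts were the same. With 2 libraries per group, the scale of single libraries limits what the spike-in values can show.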
